A study of Mus musculus with 10 samples.

Results

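The red cell miRNAs miR-451, miR-144 and miR-486 were followed in liver RNA of 10 FVBN mice aged 4 months, 5 LivPGC-1α animals and 5 wild-type (WT) controls. They were found by name in the list of miRNAs on the array, where an exact match of the miRNA name after removal of the species prefix and of any version suffix gave 4 of 655 rows: 1 for miR-451, 1 for miR-486, and 2 for miR-144, called miR-144 and miR-144:9.1 here as in the deposited table. LivPGC-1α mice carry a human PGC-1α transgene behind the promoter of the Apolipoprotein E gene, made by pronuclear injection into FVB/N eggs, and the controls are FVB/N mice without it. By the study's account all animals had a standard diet and were killed after an overnight fast. Each liver gave 1 array, and all 10 arrays lay on 1 chip, with WT on positions 1 to 5 and LivPGC-1α on positions 6 to 10, so that position and genotype cannot be told apart.

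A miRNA is a short RNA that guides an Argonaute protein to mRNAs, chiefly through its seed, the bases near its 5′ end, and lowers the output of those mRNAs. miR-144 and miR-451 are cut from 1 primary transcript that the erythroid factor GATA1 switches on, and the hairpin of miR-451 bypasses Dicer and is cut by Argonaute 2 itself. miR-486 is made from a late part of the Ankyrin 1 gene, whose protein anchors the red cell membrane skeleton, and is also made in heart and skeletal muscle. Red cells keep these miRNAs after losing the nucleus, so blood left in a tissue brings them into its RNA. A bulk sample gives the sum over its cells, so more red cells in a piece of liver and more of these miRNAs per cell cannot be told apart.

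The sequences of miR-451 and miR-144 were taken from RefSeq on build GRCm38.p6, in which 2 of the 3 members matched. They are shown with the seed, bases 2 to 8, in capitals, because the seeds show that these neighbours on the chromosome are not copies of each other.
miR-451a, chr11:78073186-78073207, plus strand: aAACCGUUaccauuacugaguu
miR-144-3p, chr11:78073047-78073066, plus strand: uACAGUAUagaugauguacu
miR-144-5p, chr11:78073010-78073032, plus strand: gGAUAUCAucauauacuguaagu
An array name without an arm stands for the main strand of the hairpin, which for miR-144 is the 3′ strand. Among 1679 mature names of the RefSeq table, none beside the miRNA itself shared bases 2 to 8 with miR-451a or with miR-144-3p. With miR-144-3p, 1 other miRNA shared bases 2 to 7, miR-101a-3p, which lies on chromosome 4 and has the sequence below, with its own bases 2 to 8 in capitals.
miR-101a-3p, chr4:101346957-101346977, minus strand: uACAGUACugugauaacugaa

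The hairpins are shown with the mature strand in capitals. In miR-451a the mature strand begins in the 5′ arm and runs on towards the loop, and in miR-144 the 3′ strand lies wholly in the 3′ arm.
Mir451a, chr11:78073170-78073241, plus strand: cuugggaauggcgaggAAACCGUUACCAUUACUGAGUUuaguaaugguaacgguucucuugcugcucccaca
Mir144, chr11:78073005-78073070, plus strand: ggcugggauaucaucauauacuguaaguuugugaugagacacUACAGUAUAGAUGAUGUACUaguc
The hairpins of miR-144 and miR-451a are separated by 99 bases and lie between the protein genes Flot2 and Eral1 in the RefSeq annotation. A second hairpin, Mir451b, overlaps that of miR-451a on the opposite strand. Mir486 lies inside Ank1 on chromosome 8 and overlaps the hairpin Mir3107 and the long noncoding Gm15816. The deposited table places miR-451 and miR-144 on chromosome 11 and miR-486 on chromosome 8, and gives no chromosome for miR-144:9.1.

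All 4 rows were read far above background. Their detection p, which sets a signal against the negative controls of the same array, was at the lowest listed value, 3.68e-38, on each of the 10 arrays. Between 423 and 482 of 655 rows were detected per array at a detection p of at most 0.01. miR-122, the main miRNA of hepatocytes and here the check of the tissue, had a normalized signal of 53839 on average in LivPGC-1α and 53535 in WT. WT 1 stood apart for miRNAs known from another tissue. The striated muscle miRNAs miR-133a, miR-133b, miR-206 and miR-499 were between 11584 and 33337 on WT 1 and at most 1877 on the other 9 arrays. Of the remaining tested muscle miRNAs, miR-1 was 2770 on WT 1 and at most 906 on the other arrays. miR-208b did not stand apart, with 1367 on WT 1 and 1135 to 1465 on the other arrays.

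miR-451 gave one of the strongest signals on every array, and its level in LivPGC-1α liver could not be set apart from that in WT. As read by the scanner, its intensity was 56428, 57662, 54532, 54785 and 54995 on LivPGC-1α arrays 1 to 5, against 50062, 56191, 55186, 50910 and 56227 on WT arrays 1 to 5. WT 1 and WT 4 were the lowest of the 10 and the other arrays lay close together, so that the groups overlapped. The highest scanner value of any row was between 50062 and 57741 per array, so miR-451 lay at or near the top of each. Whether a larger amount of miR-451 could still have raised its signal was not tested.
After quantile normalization, which gives every array the same set of values, miR-451 had 55004, 54568, 54270, 54568 and 54568 in LivPGC-1α, and 55004, 54568, 53839, 55004 and 54270 in WT. The order of the animals had changed, with WT 1 and WT 4, the dimmest on the scanner scale, now sharing the highest value with LivPGC-1α 1. miR-451 ranked between 1 and 4 among the 655 rows on each array and so could take only 4 distinct normalized values.
Its mean was 54595 ± 262 in LivPGC-1α and 54537 ± 499 in WT (SD, n = 5 each). The difference, LivPGC-1α minus WT, was 0.0016 ± 0.021 (SE) on the log2 scale, with a 95% interval of −0.045 to 0.048 (limma, adjusted p = 0.995). The normalization holds a row at the top of every array to the same few values, which narrows this interval. Without normalization the difference was 0.053, with an interval of −0.085 to 0.19.

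The row miR-144 varied most from animal to animal. miR-144 is the partner of miR-451 on the primary transcript and is known in human red cells for restraining the antioxidant factor NRF2. Its normalized signal was 7737, 9693, 5575, 10105 and 7656 in LivPGC-1α 1 to 5, against 11209, 6713, 7136, 7254 and 6633 in WT 1 to 5. WT 1 was the highest of all animals and LivPGC-1α 3 the lowest, and LivPGC-1α 1, 2, 4 and 5 all lay above the WT animals other than WT 1.
The mean was 8153 ± 1820 in LivPGC-1α and 7789 ± 1930 in WT (SD, n = 5 each), a difference of 0.065 ± 0.19 (SE) on the log2 scale with a 95% interval of −0.37 to 0.50 (limma, adjusted p = 0.945). Without WT 1 the difference was 0.20, with an interval of −0.17 to 0.57 (limma, adjusted p = 0.613).

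The second miR-144 row, miR-144:9.1, was brighter and less variable. Its normalized signal was 21812, 22746, 19131, 21812 and 20421 in LivPGC-1α 1 to 5, and 25017, 20674, 20081, 21812 and 20277 in WT 1 to 5. As in the first row, WT 1 was the highest and LivPGC-1α 3 the lowest animal. The mean was 21185 ± 1416 in LivPGC-1α and 21572 ± 2039 in WT (SD, n = 5 each), and the difference was −0.024 ± 0.070 (SE) on the log2 scale, with a 95% interval of −0.18 to 0.13 (limma, adjusted p = 0.945).
Without WT 1 it was 0.031, with an interval of −0.095 to 0.16 (limma, adjusted p = 0.877). With all 10 arrays the differences of the miR-144 rows had opposite signs, and without WT 1 both were above 0. The highest signal over the lowest among the 10 arrays was 2.01-fold for miR-144 and 1.31-fold for miR-144:9.1. The log2 distance between the rows ran from 1.11 on LivPGC-1α 4 to 1.78 on LivPGC-1α 3, the animals with the second highest and the lowest signal of the dimmer row.

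miR-486 had a lower mean in LivPGC-1α, a difference that did not pass over all miRNAs tested. It was the largest of the 4 rows with all 10 arrays, while without WT 1 that of miR-144 was larger (0.20 against −0.16). Its normalized signal was 20277, 25726, 21305, 23677 and 25307 in LivPGC-1α 1 to 5, against 34992, 25473, 25017, 27725 and 25473 in WT 1 to 5. LivPGC-1α 1, 3 and 4 lay below all WT animals, while LivPGC-1α 2 and 5 lay among them, and WT 1 was far above the rest.
The mean was 23258 ± 2407 in LivPGC-1α and 27736 ± 4192 in WT (SD, n = 5 each), a ratio of 0.842 on the fitted scale. The difference was −0.25 ± 0.11 (SE) on the log2 scale, with a 95% interval of −0.49 to −0.011 (limma, unadjusted p = 0.0421, adjusted p = 0.327). An exact permutation test of this single value, two-sided, gave p = 0.0635, where the smallest p that 5 against 5 animals allow is 0.00794. Without WT 1 the difference was −0.16, with an interval of −0.34 to 0.016 (limma, adjusted p = 0.429), and without WT 1 and WT 3 it was −0.18 (adjusted p = 0.483).
On the scanner scale miR-486 had 19050, 27420, 21097, 23452 and 25944 in LivPGC-1α, and 29935, 27601, 26034, 24901 and 25902 in WT. The log2 ratio of miR-486 to miR-451 on the same array, which multiplying an array by a constant cannot move, was −1.26 ± 0.21 in LivPGC-1α and −1.0 ± 0.15 in WT (SD, n = 5 each). Its range was −1.57 to −1.07 in LivPGC-1α and −1.12 to −0.74 in WT, so that the groups overlapped in this measure as well. Since miR-451 lay at or near the top of each array, whether this ratio follows the amount of red cells was not tested.

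**Figure D1:**
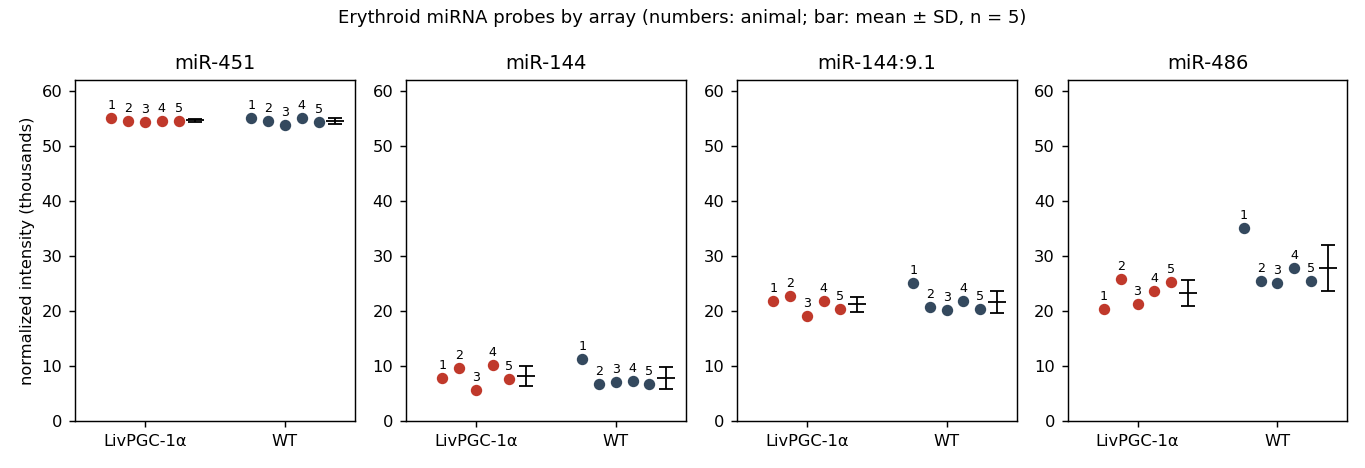
Normalized intensity (linear axis from 0, which gives 55004 as about 55) of the 4 rows on each array, with LivPGC-1α left of WT, numbers for the animals, and the mean ± SD beside the points (n = 5). miR-451 lies between 53839 and 55004 on all arrays, and WT 1 is the highest point of miR-144, miR-144:9.1 and miR-486.

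Set against the whole array, none of the 4 rows was called at an adjusted p under 0.05 in limma, a level that 2 of 513 tested rows passed, or 0.39%. At an unadjusted p under 0.05 the count was 1 of 4 rows, miR-486, against 14.4% of all tested rows. The genotypes were free of overlap in 0 of the 4 rows, against 4.87% of all tested rows. The only member past the unadjusted level was thus a kind of result that 74 of the 513 tested rows gave. A p above the threshold does not show equal levels. The intervals above give the differences that these 5 and 5 animals leave possible under this normalization, widest for miR-144. That of miR-451 is narrowed by the normalization, and with other processing its difference ran from −0.050 to 0.14.

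The members differed from one another in how much they varied between animals of 1 genotype. The pooled SD on the log2 scale was 0.33 for miR-144, 0.18 for miR-486, 0.12 for miR-144:9.1 and 0.011 for miR-451, and the median over all tested rows was 0.11. The SD of miR-144 was larger than that of 90.3% of the tested rows, and that of miR-486 larger than that of 77.2%. Since the spread depends on brightness, each was also set beside the 60 tested rows nearest to it in mean signal, whose median SD was 0.12 for miR-144, 0.072 for miR-486, 0.080 for miR-144:9.1 and 0.026 for miR-451. The SDs of miR-144, miR-486 and miR-144:9.1 were thus above the median of rows of like brightness. That of miR-451 comes from 4 possible values, in a row that lay at or near the top of each array also before normalization. Its highest signal over its lowest was 1.02-fold after normalization and 1.15-fold as read by the scanner. These are descriptions over rows of the same 10 arrays, with no test.

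Next it was asked whether the members were high and low in the same animals. The miR-144 rows were. Over the 10 arrays Pearson's r between miR-144 and miR-144:9.1 was 0.89 (permutation test, two-sided, p = 0.00041, adjusted p = 0.00246 over the 6 pairs of rows) and Spearman's rho was 0.87 (permutation p = 0.00235, adjusted p = 0.0141). Without WT 1 and LivPGC-1α 4, the animals farthest from the median of miR-144, r was 0.87.

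Between different miRNAs the covariation was weaker and did not pass in Pearson's r. For miR-144 and miR-486 r was 0.54 (permutation p = 0.103, adjusted p = 0.155) and rho 0.26 (permutation p = 0.472, adjusted p = 0.472). WT 1 was the highest animal for both, and without it r was 0.17 and rho −0.025. For miR-144:9.1 and miR-486 r was 0.66 (permutation p = 0.0411, adjusted p = 0.0822) and rho 0.52 (permutation p = 0.124, adjusted p = 0.186), and without WT 1 and LivPGC-1α 3 r was −0.15. Leaving out the animals at the ends of a range also narrows it, and without LivPGC-1α 1 the r of miR-144:9.1 and miR-486 was 0.85 (exact permutation, adjusted p = 0.0177). The relations of miR-486 thus depended on which animals were included.
The cluster partners miR-451 and miR-144 had an r of 0.46 (permutation p = 0.182, adjusted p = 0.219) and a rho of 0.64 (permutation p = 0.0525, adjusted p = 0.105). Without WT 1 and WT 3, the animals farthest from the median of miR-451, r was 0.32. miR-451 and miR-144:9.1 had an r of 0.70 (permutation p = 0.0231, adjusted p = 0.0692) and a rho of 0.81, which passed (permutation p = 0.00533, adjusted p = 0.0160). Without the same pair of animals r was 0.65 (exact permutation p = 0.0786), and with all animals but no normalization it was 0.41. All correlations with miR-451 after quantile normalization rest on its 4 distinct values, and rho was computed on that scale only.
For miR-451 and miR-486 r was 0.28 (permutation p = 0.428, adjusted p = 0.428) and rho 0.34 (permutation p = 0.333, adjusted p = 0.400), and without WT 1 r was −0.058.

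**Figure D2:**
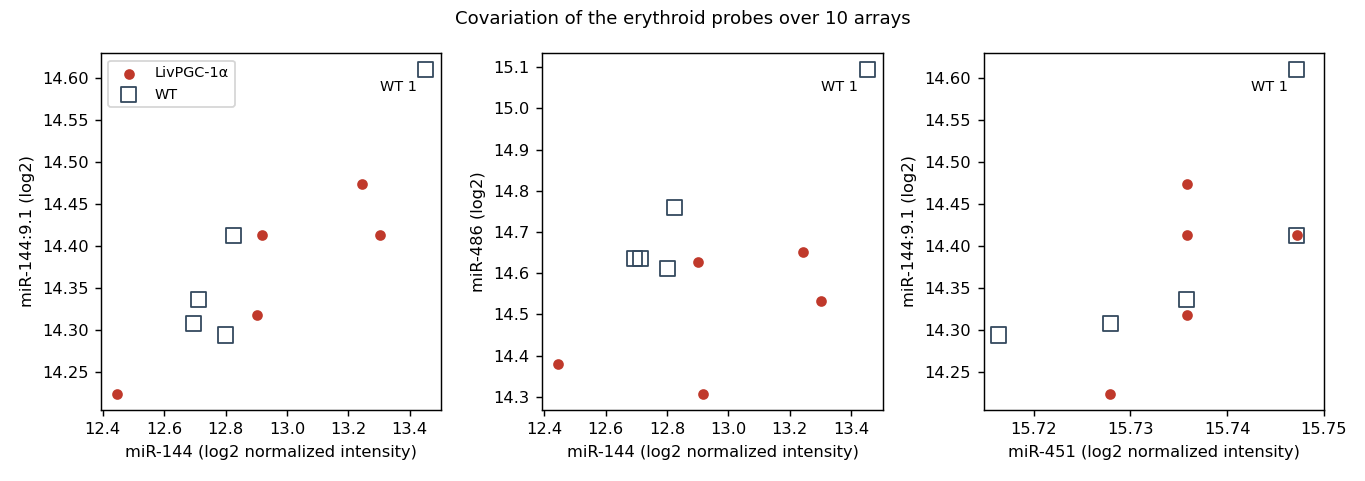
Log2 normalized intensity of pairs of rows over the 10 arrays (filled circles LivPGC-1α, open squares WT). The miR-144 rows rise together (r = 0.89), miR-144 and miR-486 are both highest in WT 1 (r = 0.54 with it and 0.17 without it), and miR-451 takes only 4 values, with LivPGC-1α 1 and WT 4 at the same point.

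A genotype holds 5 animals, too few for a correlation of its own, so the group means were subtracted and the relations computed again. For miR-144 and miR-486 r was then 0.77 (exact permutation within genotypes, p = 0.0307, adjusted p = 0.0533), and without WT 1 it was 0.55. For miR-144:9.1 and miR-486 the values were 0.76 and 0.43, for miR-451 and miR-144:9.1 0.72 and 0.63, for miR-451 and miR-144 0.45 and 0.22, and for miR-451 and miR-486 0.42 and 0.12. The miR-144 rows kept an r of 0.91, and of 0.84 without WT 1. Within genotypes miR-144 and miR-486 were thus closer to each other than over all animals, and with WT 1 left out all 6 values were lower.

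**Figure D3:**
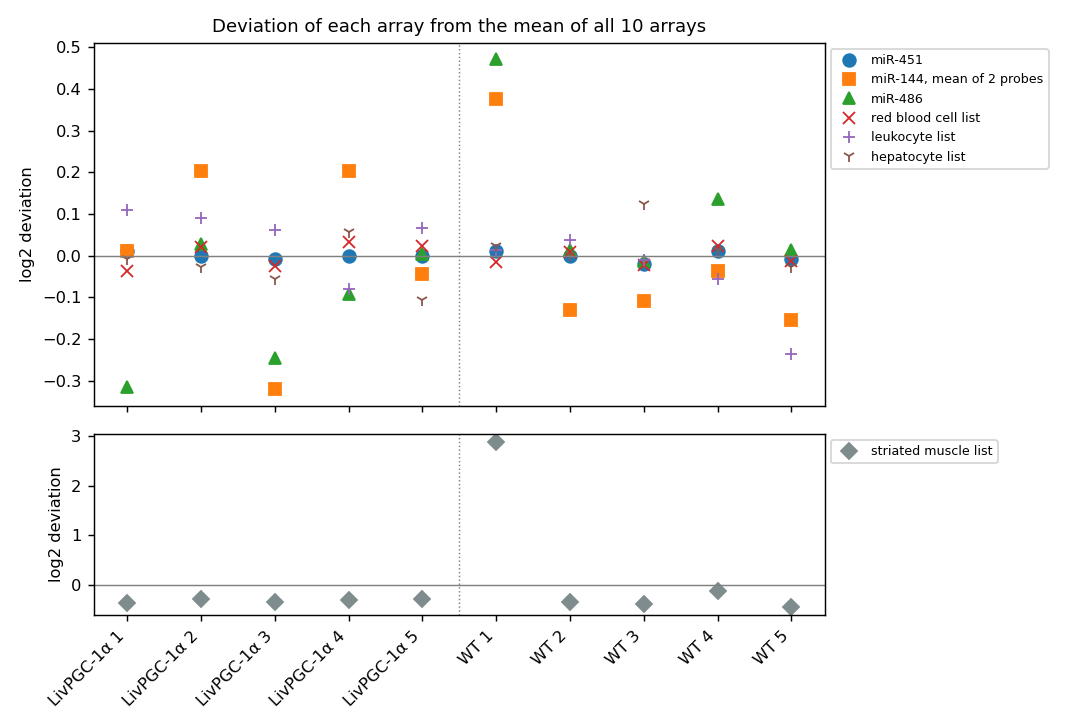
Log2 deviation of each array from the mean of all 10 arrays, for the members and for the red blood cell, leukocyte and hepatocyte lists (upper panel) and for the striated muscle list (lower panel, its own axis), with LivPGC-1α left of WT. miR-486 and miR-144 are highest in WT 1, where the muscle list stands at 2.89, and the red blood cell list stays between −0.036 and 0.033 on all arrays.

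Averaged over the 3 miRNAs, with the mean of both rows for miR-144, the deviation from the mean of all arrays was −0.098, 0.077, −0.19, 0.037 and −0.014 on the log2 scale in LivPGC-1α 1 to 5, and 0.29, −0.039, −0.047, 0.037 and −0.049 in WT 1 to 5. WT 1 was the highest and LivPGC-1α 3 the lowest, and the other 4 WT animals lay within the range of LivPGC-1α. This mean follows mostly miR-144 and miR-486, which deviated by −0.32 to 0.38 and by −0.32 to 0.47. miR-451, held to a few values by the normalization, deviated by only −0.019 to 0.012. No test is given, since the members are not replicates of a condition.

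Other miRNAs known from red blood cells were not called in either direction. Of 12 miRNAs on this list, among them miR-16, miR-92a, miR-25 and the cluster of miR-182, miR-183 and miR-96, 11 were tested in 12 rows, and miR-363 was below the detection limit on all arrays. In LivPGC-1α 5 rows were above and 7 below WT, with a median of −0.016 against 0.012 over all tested rows, and 0 were called (limma). At an unadjusted p under 0.05 there were 3 of the 12 rows, miR-92a (0.084, adjusted p = 0.284) and miR-106a:9.1 (0.21, adjusted p = 0.324) with a higher and miR-93 (−0.13, adjusted p = 0.268) with a lower mean in LivPGC-1α. Over all tested rows 14.4% had such a p and 0.39% were called. miR-16, the brightest of the list and abundant in many tissues besides blood, had a mean signal of 50393 in LivPGC-1α and 51580 in WT (−0.034, adjusted p = 0.532). The deviation of the list, a mean over its 12 rows, was between −0.036 and 0.033 in LivPGC-1α and between −0.022 and 0.024 in WT, and on WT 1, where miR-144 and miR-486 were highest, it was −0.015.

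Of 10 miRNAs known to act on red cell formation or on the choice between blood lineages, 7 lay above and 3 below WT in LivPGC-1α, with a median of 0.015, and 0 were called (limma). miR-150, which holds back the red cell fate in favour of the platelet lineage, was the only one at an unadjusted p under 0.05 and the only one without overlap of the genotypes. Over all tested rows these shares were 14.4% and 4.87%. The mean signal of miR-150 was 22779 in LivPGC-1α and 17290 in WT (0.40 ± 0.084 SE, adjusted p = 0.0864). The KIT-targeting pair miR-221 and miR-222 differed by −0.11 and 0.016 (adjusted p = 0.577 and 0.945), and miR-126-3p, the brightest, by 0.014 (adjusted p = 0.886).

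**Figure D4:**
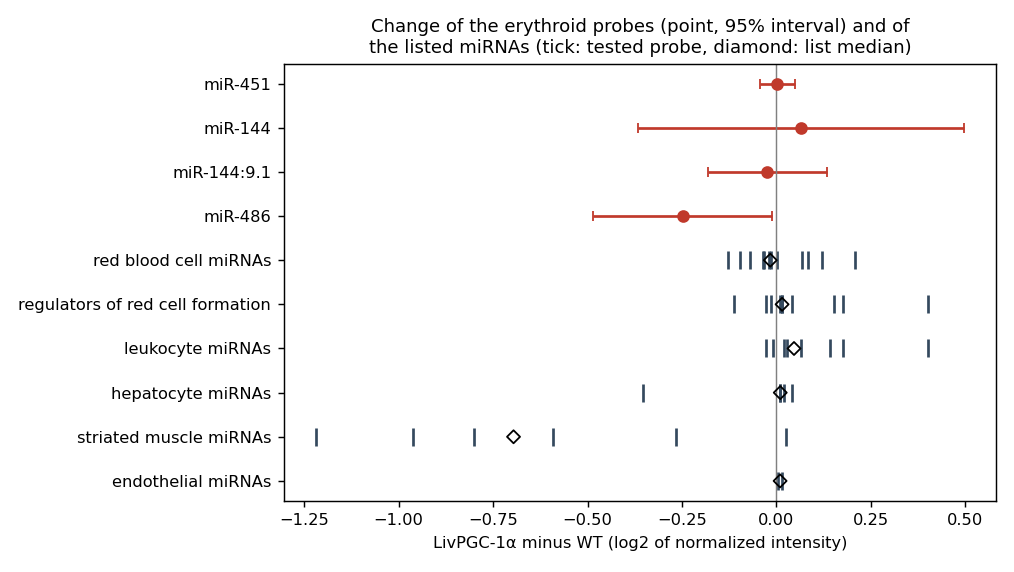
Difference LivPGC-1α minus WT in log2 normalized intensity, as a point with its 95% interval for the 4 rows of the erythroid miRNAs, and as a tick for each tested row of the listed miRNAs with the list median as a diamond. The interval of miR-486 runs from −0.49 to −0.011, and with WT 1 included the striated muscle list lies mostly below 0.

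White blood cells travel with red cells in blood left in a tissue. Of the 8 leukocyte miRNAs 6 lay above and 2 below WT in LivPGC-1α (median 0.046), and 0 were called (limma). At an unadjusted p under 0.05 there was 1 of the 8, miR-150, against 14.4% of all tested rows. miR-142-3p, the brightest leukocyte miRNA, differed by 0.027 (adjusted p = 0.925). The list, which shares miR-150, miR-155 and miR-223 with the one before, had a mean deviation of −0.080 to 0.11 in LivPGC-1α and of −0.24 to 0.037 in WT, and WT 5 was its lowest animal. On WT 1 it was 0.015, and on LivPGC-1α 3, where the mean over the 3 members was lowest, 0.063. Of the 5 hepatocyte miRNAs tested 4 lay above and 1 below WT (median 0.010), and 0 were called (limma). At an unadjusted p under 0.05 there was 1 of the 5, miR-802 (−0.35, adjusted p = 0.327), against the same 14.4%. The hepatocyte list deviated by −0.11 to 0.058 in LivPGC-1α and by −0.028 to 0.13 in WT, and the endothelial pair miR-126-3p and miR-126-5p (changes of 0.014 and 0.0053) by −0.0077 to 0.019 in LivPGC-1α and by −0.032 to 0.019 in WT.

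The striated muscle list was high together with miR-144 and miR-486 on 1 array, WT 1. miR-451 ranked 1 on that array and had its highest normalized value, 55004, shared with WT 4 and LivPGC-1α 1. It could not have gone higher on that scale, so whether it moved with the list cannot be read from these values. The mean deviation of the list over 6 tested miRNAs was 2.89 on WT 1, against −0.36 to −0.28 in LivPGC-1α and −0.45 to −0.12 on the other WT arrays. The summed signal of the list was 6352 to 6767 in LivPGC-1α, and in WT it was 98186 on WT 1 and at most 7433 on the other arrays. Of the 6 miRNAs 1 lay above and 5 below WT in LivPGC-1α (median −0.70). In limma 0 of them were called, and 0 were below 0.05 before adjustment, against 14.4% of all tested rows. The brightest, miR-133a, differed by −0.96 (adjusted p = 0.662), and miR-206, which had the smallest p, by −1.22 (adjusted p = 0.631). Without WT 1, a setting chosen after the values were seen, 4 of the 6 passed the detection filter, with 2 above and 2 below WT (median −0.0047), and miR-133a differed by −0.053 and miR-206 by −0.14 (limma, adjusted p = 0.903 and 0.777). miR-206, made in skeletal muscle, was detected on 2 arrays, and miR-1 and miR-499 on 1 each, while miR-208a was detected on none. miR-486 is itself made in muscle, and the part of muscle RNA in its signal on WT 1 was not tested. miR-144 and miR-144:9.1 were highest on the same array.

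For each row, the 5 rows with the most similar pattern were taken from 407 others detected on all arrays, by Pearson's r over the 10 arrays after subtraction of the group means. Each r is given as a description, with no p, because the rows were picked by it. miR-144 came nearest to miR-144:9.1 (0.91), miR-128a:9.1 (0.81), miR-505 (0.80), miR-486 (0.77) and miR-193b (0.70). miR-144:9.1 came nearest to miR-144 (0.91), the muscle miRNAs miR-133a (0.78) and miR-133a* (0.77), miR-486 (0.76) and miR-128a:9.1 (0.73). miR-486 came nearest to miR-193b (0.86), miR-133a (0.79), miR-128a:9.1 (0.79), miR-144 (0.77) and miR-133a* (0.77). miR-486 was thus among the 5 nearest of both miR-144 rows. Without WT 1 the values of miR-144, in the same order, were 0.84, 0.63, 0.73, 0.55 and 0.41. Those of miR-144:9.1 were 0.84, 0.48, 0.33, 0.43 and 0.42, and those of miR-486 were 0.67, 0.34, 0.52, 0.55 and 0.16. All of these values were lower than with WT 1 included.
miR-451 had other neighbours, namely miR-181b (0.92), miR-101a (0.86), miR-294 (0.80), miR-763 (0.77) and miR-378* (0.77), and without WT 1 these values were between 0.77 and 0.92. Of the other members, miR-144:9.1 held place 11 among the 407 rows by likeness to miR-451, miR-144 place 73 and miR-486 place 83. These neighbours and places rest on the 4 distinct values of miR-451 after quantile normalization and were not computed with another normalization. miR-101a, the miRNA that shares bases 2 to 7 with miR-144-3p, had a mean signal of 48151 in LivPGC-1α and 47673 in WT (0.014, 95% interval −0.033 to 0.062, limma, adjusted p = 0.817). Its second row, miR-101a:9.1, had 40947 in LivPGC-1α and 40933 in WT (0.00073, adjusted p = 0.998).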

How the data were processed

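Total liver RNA was hybridised to Illumina Universal BeadChips and read on an iScan. The authors deposited, per the file headers, an averaged signal intensity for each of 655 rows, neither background-subtracted nor scaled, and beside each intensity a detection p-value. The authors also deposited quantile-normalized intensity values, on a linear scale, not centred and with the same median of 2052.3 on every array, which served as an alternative. The GenomeStudio version and genome build are not given in the sources used here. The labels number 5 samples per genotype without stating that each is its own animal. They were taken as 1 animal each, and p-values measure the spread between these samples.

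The intensities were quantile-normalized and log2-transformed without an offset. Rows with a detection p no higher than 0.01 on 1 or more arrays were tested (513 rows, among them the 4 of the members). The genotypes were compared in limma 3.58.1 under R 4.3.3 (lmFit and eBayes, without covariates), with Benjamini-Hochberg adjustment over the tested rows and a call at an adjusted p under 0.05. The fit was tested on simulated data. The number of arrays limits the precision, and the median SE of a log2 change was 0.065. Correlations were tested by permutation (100000 resamples, or all of them with fewer than 10 arrays). They were planned for 3 pairs and adjusted over 6, since the table held 2 rows for miR-144.

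The members and the lists were chosen with earlier results of these data known. The miRNAs named are the members, the 5 rows most like each, and of each list the brightest and that with the smallest p, and miR-122. Others named, such as miR-92a, miR-106a:9.1, miR-221, miR-222 and the remaining muscle miRNAs, were chosen for their role or after their values were seen. Sequences and neighbouring genes came from RefSeq tables of GRCm38.p6. Alternatives were the normalization, the offset, the detection filter, the variance model, terms for replicate number and chip position, and leaving out arrays.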

Additional observations from a re-analysis of the deposited data

Results flagged for a closer look

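In 4 of 20 checks of the 5 values of 1 genotype, over the 4 rows and 6 miRNA lists, the gap between 1 animal and the next exceeded 0.71 of the whole range, and a rate of 1 in 20 would give 1. WT 1 stood apart for miR-144, with a normalized signal of 11209 where the next WT animal had 7254. WT 1 also stood apart for miR-486, at 34992 with the next WT animal at 27725, and for the mean deviation of the striated muscle miRNAs, at 2.89 with the next WT animal at −0.12. For miR-144:9.1, WT 1 was again the highest, but its gap did not reach this limit. LivPGC-1α 4 stood apart for the mean deviation of the leukocyte miRNAs, at −0.080, where the other LivPGC-1α animals lay between 0.063 and 0.11.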

How the results depend on the processing

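None of the 4 rows was called in limma in any of the 25 other settings. The difference of miR-486 stayed below 0 in all of them, between −0.26 and −0.12 with other processing and between −0.29 and −0.16 with 1 animal left out (adjusted p between 0.225 and 0.894 over both). That of miR-144 turned to −0.041 with the 75th percentile over rows detected on all arrays, ran from −0.020 to 0.20 with 1 animal left out, and was 0.41 (−0.48 to 1.30) once chip position entered as a linear term. That of miR-144:9.1 was 0.040 without normalization, 0.13 with the 75th percentile over all rows, 0.00084 with cyclic loess, 0.17 with a linear term for chip position and 0.017 without WT 1 and WT 3, and ran from −0.049 to 0.031 with 1 animal left out. That of miR-451 was −0.050 with cyclic loess, −0.0018 with array weights, −1.07e-05 without WT 1 and WT 3 and −0.0050 without WT 1, WT 3 and WT 5, and ran from −0.0030 to 0.0046 with 1 animal left out. With the 75th percentile over all rows it was 0.14 (0.016 to 0.26, unadjusted p = 0.0303, adjusted p = 0.112), and miR-451 was then the only one of the 4 at an unadjusted p under 0.05, with miR-486 at −0.12 (unadjusted p = 0.299). That setting also moved the median difference over all tested rows to 0.075, against 0.012 in the main analysis. In it 168 of the 513 tested rows had an unadjusted p under 0.05 (limma). Both settings that leave out several WT arrays were chosen after seeing the data.

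The correlation of miR-451 with miR-486 was 0.72 with cyclic loess (permutation, adjusted p = 0.0611). Without normalization the correlation of miR-451 was −0.030 with miR-144, −0.27 with miR-486 and 0.41 with miR-144:9.1 (0.45 with the 75th percentile over rows detected on all arrays and 0.48 with cyclic loess), and that of miR-144:9.1 with miR-486 was −0.15 without the 2 animals farthest from the median. With 1 animal left out, r ran from 0.83 to 0.94 for the miR-144 rows, from 0.17 to 0.67 for miR-144 and miR-486, from 0.21 to 0.85 for miR-144:9.1 and miR-486 (0.85, exact permutation, adjusted p = 0.0177, without LivPGC-1α 1), from 0.30 to 0.56 for miR-451 and miR-144, from 0.65 to 0.73 for miR-451 and miR-144:9.1, and from −0.058 to 0.63 for miR-451 and miR-486.

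Of all tested rows, limma called 1 without normalization, with cyclic loess and with a variance trend, 80 with the 75th percentile over all rows, and 0 with the replicate block, with chip position and without the WT arrays named above, where 59, 36, 51 and 53 had an unadjusted p under 0.05. With 1 animal left out it called 0 to 4, with 63 at an unadjusted p under 0.05 where 4 were called, and 82, 68 and 69 without WT 2, WT 5 and LivPGC-1α 1, where 0 were called. With the replicate number as a block the adjusted p of miR-486 was 0.464. Deviations of same-numbered animals correlated between −0.37 and 0.33, and the labels do not state whether the numbers pair animals. The cause of these changes was not tested.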
